A study of Mus musculus with 16 samples.

Results

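MHC class I antigen presentation was followed through 10 genes: the heavy chain genes H2-K1, H2-D1, H2-Q7 and H2-T23, the light chain gene B2m, the transporter genes Tap1 and Tap2, the loading factor Tapbp, the peptidase Erap1 and the transcriptional activator Nlrc5. They were taken by symbol from the 53090 genes of the deposited tables, and all 10 passed the filter on low counts in every comparison. The samples were RNA of naïve CD4+ T cells (Tn) and of cells cultured in Treg conditions (Treg), each from WT mice and from mice lacking AIM2, a cytosolic sensor of double-stranded DNA. There were 4 libraries in each of the 4 groups, 16 in all. All mice had the C57BL/6 background. WT Tn and Aim2-/- Tn cells were naïve cells taken from the spleen by immunomagnetic selection and were not cultured. WT Treg and Aim2-/- Treg cells were CD4+ T cells of the same genotypes kept for 2 days (48 h) with antibodies against CD3 and CD28, recombinant human TGF-beta and recombinant mouse IL-2. No FOXP3+ fraction was described as having been sorted from these cultures, so the Treg libraries hold whatever the culture held, and the ages of the mice are not given in the sources used here. Which part of Aim2 is disrupted in these mice is not given in the sources used here.

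MHC class I molecules display peptides from inside the cell to CD8+ T cells and are read by NK cells. The proteasome cuts proteins, the TAP transporter carries the peptides into the endoplasmic reticulum, ERAP1 trims them, and tapasin holds empty heavy chains with beta-2-microglobulin next to TAP until a peptide fits. In lymphocytes the class I genes depend on NLRC5, which works at their promoters with the RFX, CREB and NF-Y factors, and they respond to interferon and to NF-kappaB.

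Heavy chain genes of mice resemble each other closely, and this bears on every count given here, because the reads were 51 bases long. The stretch shown next lies within 1 exon of each gene and shows how a read can lose its gene of origin. Capitals mark the bases that differ from H2-K1, and all sequences run along the coding strand on GRCm38 with GENCODE M21 gene models. H2-K1 and H2-D1 are identical over the whole stretch, while H2-Q7 and H2-T23 differ from them at 7 positions each.
H2-K1 (chr17:33999862-33999912, minus strand): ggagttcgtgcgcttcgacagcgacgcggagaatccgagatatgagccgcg
H2-D1 (chr17:35263470-35263520, plus strand): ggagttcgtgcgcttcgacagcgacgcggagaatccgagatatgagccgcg
H2-Q7 (chr17:35439543-35439593, plus strand): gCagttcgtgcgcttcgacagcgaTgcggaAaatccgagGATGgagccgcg
H2-T23 (chr17:36032281-36032331, minus strand): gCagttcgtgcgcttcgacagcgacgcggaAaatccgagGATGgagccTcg

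Over all transcripts of a gene, 9.22% of the 51-base words of H2-K1 also occurred in another gene. The share was 12.2% for H2-D1, 13.2% for H2-T23 and 26% for H2-Q7. The longest coding run shared by H2-K1 and H2-D1 was 91 bases, and that shared by H2-Q7 and its neighbour H2-Q6 was 265 bases. B2m, Erap1 and Nlrc5 shared no such word, and Tap1 (0.424%), Tap2 (0.628%) and Tapbp (2.79%) shared few. Reads of the heavy chain genes were divided between them by the RSEM estimate, so levels of single heavy chain genes are uncertain, and the summed count of 35 class I heavy chain genes, of which 27 had a count, is given beside them. A sum keeps the reads that are shared within the family.

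Promoters of the members are shown because the genes are known for shared control elements and most of them moved together between the cell states. RefSeq start sites were given for 8 of the 10 members in the reference table (build GRCm38.p6), and Tap2 and Nlrc5 were not among them. The stretches shown are those of H2-K1, H2-Q7 and B2m that touch no annotated exon. Capitals mark matches on either strand to 4 motifs: the NF-kappaB site GGGATTCCC, the core TGACG of a CREB site, the CCAAT box, which reads ATTGG on the other strand, and the core of an interferon-stimulated response element (GAAA, any 2 bases, GAAA).
H2-K1 (chr17:34000357-34000467, minus strand): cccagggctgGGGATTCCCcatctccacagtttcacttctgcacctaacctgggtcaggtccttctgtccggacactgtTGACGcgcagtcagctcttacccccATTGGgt
H2-Q7 (chr17:35439013-35439123, plus strand): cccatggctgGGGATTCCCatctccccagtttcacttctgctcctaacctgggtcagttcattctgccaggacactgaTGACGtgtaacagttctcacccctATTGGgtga
B2m (chr2:122147538-122147648, plus strand): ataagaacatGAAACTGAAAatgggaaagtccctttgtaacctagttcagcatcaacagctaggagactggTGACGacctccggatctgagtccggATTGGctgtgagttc

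Within the 250 bases before the start site, the NF-kappaB letters were found in H2-K1, H2-D1 and H2-Q7 and in 0.301% of all 32851 windows of that length. The interferon response core was found in B2m and H2-T23 and in 2.98% of all windows. TGACG was found in H2-K1, H2-D1, H2-Q7, B2m and Tap1 (17.8% of all windows), and the CCAAT box in all of the 8 members except Erap1 (33.8% of all windows). The marked matches do not overlap each other in the stretches printed. Such matches describe letters in these windows and were not measured as bound sites. Only the stated letters were searched, so a window without a match can still hold a variant of the motif.

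Libraries held totals of 22516424 to 34533316 counts, and a floor of 3 counts was worth 0.0869 to 0.133 CPM, which covers counting error only. Aim2 lay at 37.8, 36.8, 32.0 and 32.9 CPM in WT Tn and at 9.21, 6.65, 6.44 and 6.85 CPM in Aim2-/- Tn. In WT Treg it was at 36.1, 40.8, 43.7 and 40.5 CPM, and the Aim2-/- Treg libraries held 10.95, 10.1, 8.99 and 7.29 CPM. These values are for the whole gene, and no value within the disrupted part was analysed here. The genotypes did not overlap in either state (log2 fold change -2.24 with SE 0.13 in Tn and -2.12 with SE 0.13 in Treg, adjusted p = 1.1e-05 and 0.00014, edgeR). Of the markers of the labelled cells, the summed level of 5 CD4 T cell genes (Cd3e, Cd3d, Cd3g, Cd4 and Trac) was 2594 to 3276 CPM in Tn and 1118 to 1262 CPM in Treg. The summed level of 4 genes of Treg and activated T cells (Foxp3, Il2ra, Ctla4 and Ikzf2) was 22.8 to 87.4 CPM in Tn and 1677 to 2177 CPM in Treg. Most of the Tn sum was Ctla4, and most of the Treg sum was Il2ra and Foxp3. Foxp3, Il2ra and Ikzf2 were called higher in Treg in both genotypes (edgeR, adjusted p under 0.05). Ctla4 did not pass the test in either (log2 fold change 0.59, SE 0.56, in WT and -0.08, SE 0.12, in Aim2-/-). In such bulk samples, fewer cells of a type and less RNA per cell cannot be told apart. The labels do not say that the libraries came from separate animals or cultures, and p-values then measure only the spread between these libraries.

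Most of the class I genes were lower after 2 days of culture in Treg conditions. In WT cells 8 of the 10 members fell and Erap1 rose, while Tap1, at a log2 fold change of 0.11 (SE 0.13), did not pass the test. Of all 13675 genes tested in this comparison, 39.2% were called lower and 37.7% higher (edgeR's quasi-likelihood test, Benjamini-Hochberg adjusted p under 0.05). The median log2 fold change was -0.97 over the members and -0.05 over all genes tested. The groups did not overlap for 9 members, and for 72.9% of all genes. In Aim2-/- cells the same 8 members fell and Erap1 rose, with 40.2% of 13713 tested genes called lower and 39.1% higher. There the median was -0.91 over the members and -0.04 over all genes, and the groups did not overlap for 9 members and for 74.7% of all genes.

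**Figure D1:**
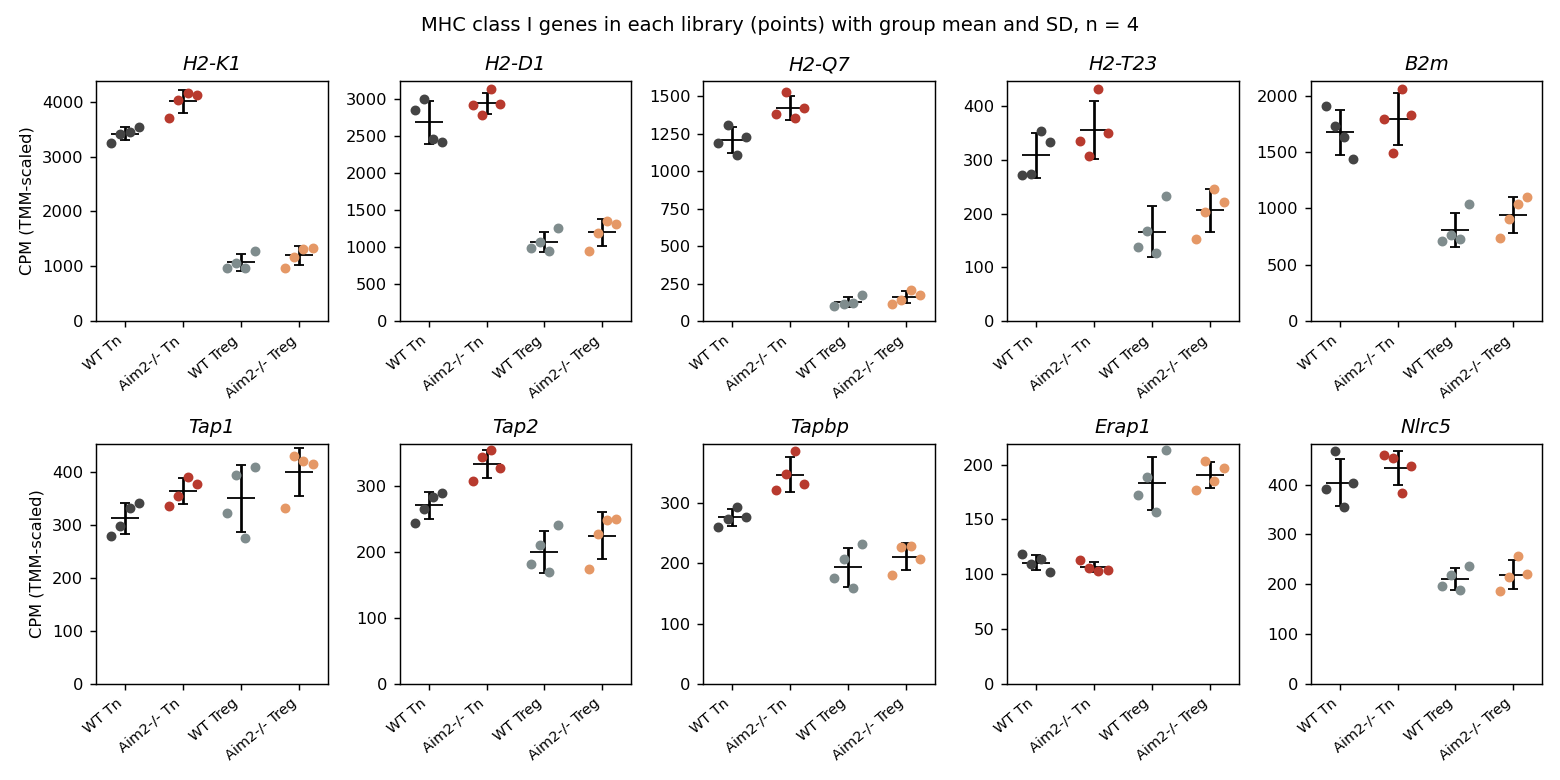
Level of each of the 10 members in CPM scaled by TMM (vertical axis, linear from 0) in the 4 groups, with 1 point per library, placed from left to right by replicate number, and the mean and SD of each group (n = 4). Within each genotype the Treg libraries lie below the Tn libraries for 8 genes, above them for Erap1 and among them for Tap1.

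H2-K1 and H2-D1 encode the classical heavy chains, which present peptides to CD8+ T cells. H2-K1 (chromosome 17, 33996017 to 34000347, minus strand) was at 3255, 3419.5, 3457 and 3541 CPM in WT Tn libraries 1 to 4 and at 964, 1066, 961 and 1279 CPM in WT Treg. In Aim2-/- it was at 3704, 4039.6, 4161 and 4124 CPM in Tn and at 962, 1169, 1321 and 1333 CPM in Treg. The lowest Tn library was thus far above the highest Treg library in each genotype, and H2-K1 fell by 1.73 on the log2 scale in WT (SE 0.09, adjusted p = 1.1e-07) and by 1.80 in Aim2-/- (SE 0.11, adjusted p = 4.8e-08, edgeR), a 3.33-fold and a 3.48-fold decrease.

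H2-D1 (chromosome 17, 35262730 to 35267499, plus strand) was at 2849, 3009, 2457 and 2425 CPM in WT Tn and at 982, 1075, 949 and 1258 CPM in WT Treg. Its levels in Aim2-/- were 2923, 2780.5, 3135 and 2938 CPM in Tn and 949, 1193, 1353 and 1311 CPM in Treg. No Treg library reached a Tn library. The decrease was 2.62-fold in WT (log2 fold change -1.39, SE 0.10, adjusted p = 1.3e-06, edgeR) and 2.55-fold in Aim2-/- (-1.35, SE 0.11, adjusted p = 5.2e-07, edgeR), smaller than that of H2-K1 in each genotype, a difference between the genes that was not tested.

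Of the non-classical heavy chains, H2-Q7 belongs to the Qa-2 molecules and H2-T23 encodes Qa-1, which is read by receptors of NK cells and CD8+ T cells. H2-Q7 (chromosome 17, 35439155 to 35443773, plus strand) was at 1192, 1311, 1108 and 1226 CPM in WT Tn and at 98.9, 116, 119 and 172 CPM in WT Treg. In Aim2-/- it was at 1382, 1531, 1353 and 1423 CPM in Tn and at 112, 143, 207 and 172 CPM in Treg. The largest decrease among the members was that of H2-Q7, 9.93-fold in WT (log2 fold change -3.31, SE 0.16, adjusted p = 7.5e-08, edgeR) and 9.33-fold in Aim2-/- (-3.22, SE 0.17, adjusted p = 1.5e-08, edgeR). Of the members, H2-Q7 also had the largest share of 51-base words in common with other genes, and its level rests in part on how those reads were divided.

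H2-T23 (chromosome 17, 36029773 to 36032855, minus strand) was at 272, 274, 354 and 335 CPM in WT Tn and at 138, 168, 128 and 233 CPM in WT Treg. The Aim2-/- libraries held 335, 308, 432 and 351 CPM in Tn and 153, 204, 246 and 222 CPM in Treg. The groups lay close but did not overlap within a genotype. H2-T23 fell by 0.95 on the log2 scale in WT (SE 0.18, adjusted p = 0.001, edgeR) and by 0.85 in Aim2-/- (SE 0.15, adjusted p = 0.00026, edgeR), the smallest decrease among the 4 heavy chain members.

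The 35 heavy chain genes together made up 0.935% to 1.00% of the counts of a library in WT Tn and 0.252% to 0.335% in WT Treg, and 1.05% to 1.17% and 0.254% to 0.357% in Aim2-/-. Their sum fell by 1.82 on the log2 scale in WT (SE 0.10, adjusted p = 1.2e-07) and by 1.84 in Aim2-/- (SE 0.11, adjusted p = 4.4e-08, edgeR). The composition of the sum also differed between the states. H2-K1 held 33.4% to 38.4% of the sum in Tn and 36.1% to 38.5% in Treg, ranges that overlap. H2-D1 held 24.9% to 29.7% in Tn and 36.9% to 38.4% in Treg, and H2-T23 held 2.67% to 3.93% and 5.11% to 6.83%. H2-Q7 went the other way, from 11.9% to 13.7% of the sum in Tn to 3.87% to 5.66% in Treg. These shares rest on the division of reads within the family and were not tested.

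**Figure D2:**
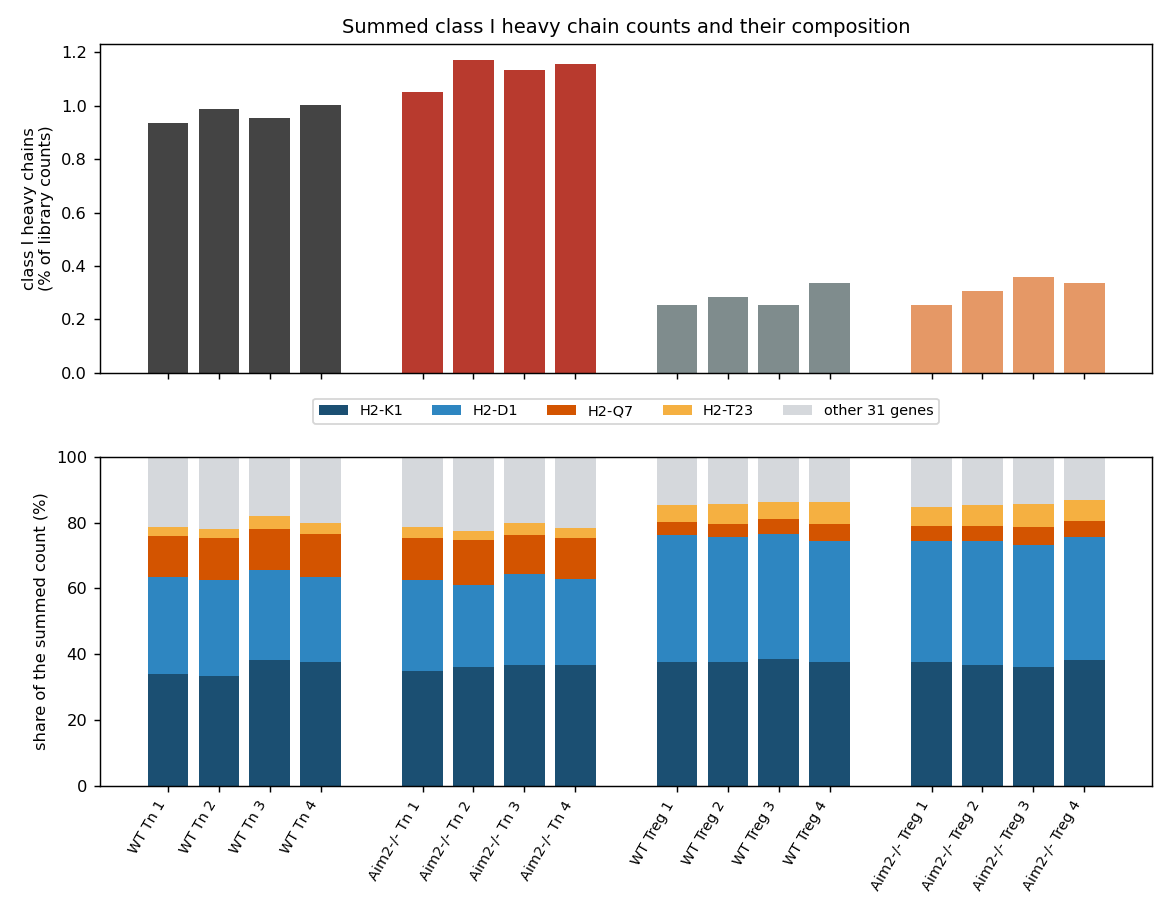
Upper panel, summed count of 35 class I heavy chain genes as a percentage of all counts of each of the 16 libraries. Lower panel, share of that sum held by H2-K1, H2-D1, H2-Q7, H2-T23 and the other 31 genes in percent. The sum is at or above 0.935% in every Tn library and at or below 0.357% in every Treg library, and the share of H2-Q7 is smaller and that of H2-D1 larger in every Treg library than in every Tn library.

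B2m encodes beta-2-microglobulin, the light chain that pairs with these class I heavy chains. It lies outside the MHC, on chromosome 2 (122147686 to 122153083, plus strand). B2m was at 1909.9, 1729, 1634 and 1435 CPM in WT Tn and at 710.4, 764, 732 and 1037 CPM in WT Treg. The Aim2-/- libraries were at 1798, 1493, 2062 and 1830.5 CPM in Tn and at 737, 906, 1035 and 1098 CPM in Treg. Every Treg library lay below every Tn library of its genotype, a 2.15-fold decrease in WT (log2 fold change -1.10, SE 0.13, adjusted p = 3e-05, edgeR) and a 1.98-fold decrease in Aim2-/- (-0.98, SE 0.13, adjusted p = 3.4e-05, edgeR). B2m shared no 51-base word with another gene, so no full-length stretch of its transcripts exactly matched another gene's transcript in the GENCODE M21 models. Matches with mismatches or on the other strand were not searched.

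The peptide transporter TAP is built from the products of Tap1 and Tap2, and these genes did not move alike. Tap2 (chromosome 17, 34203527 to 34216321, plus strand) was at 245, 266, 283 and 290.4 CPM in WT Tn and at 181, 210.1, 169 and 241 CPM in WT Treg. In Aim2-/- its levels were 307, 344, 355 and 328 CPM in Tn and 175, 227, 248 and 250.2 CPM in Treg. Tap2 fell by 0.49 on the log2 scale in WT (SE 0.11, adjusted p = 0.0028) and by 0.62 in Aim2-/- (SE 0.11, adjusted p = 0.00031, edgeR), and its groups did not overlap within a genotype.

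Tap1 (chromosome 17, 34187553 to 34197225, plus strand) was at 279, 297, 332 and 341 CPM in WT Tn and at 322, 394, 275 and 409.8 CPM in WT Treg. In Aim2-/- it was at 336, 354, 389.9 and 376 CPM in Tn and at 332, 429.5, 421 and 414 CPM in Treg. Tn and Treg libraries overlapped in each genotype, and the log2 fold changes were 0.11 (SE 0.13, adjusted p = 0.45) in WT and 0.08 (SE 0.10, adjusted p = 0.48) in Aim2-/- by edgeR. Within WT, replicates 1 and 2 alone gave Tap1 a log2 fold change of 0.31 (adjusted p = 0.024), and replicates 3 and 4 alone gave -0.05 (edgeR). The Tap1 locus overlaps Psmb9 by 212 bases on the other strand, and the strand setting of the counting is not given in the sources used here.

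Tapbp encodes tapasin, which bridges TAP and empty class I molecules. Tapbp (chromosome 17, 33915899 to 33929292, plus strand) was at 261, 274, 294 and 277 CPM in WT Tn and at 176, 207, 159 and 233 CPM in WT Treg. The Aim2-/- levels were 322, 349, 388 and 331 CPM in Tn and 180.2, 227, 228 and 208 CPM in Treg. No Treg library reached the Tn libraries of its genotype. Tapbp fell by 0.57 on the log2 scale in WT (SE 0.11, adjusted p = 0.0011, edgeR) and by 0.78 in Aim2-/- (SE 0.10, adjusted p = 1.8e-05, edgeR).

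Erap1, the peptidase that trims peptides inside the endoplasmic reticulum, was the member that rose. Erap1 (chromosome 13, 74639568 to 74693201, plus strand) was at 118, 109, 114 and 101 CPM in WT Tn and at 173, 188, 157 and 213 CPM in WT Treg. Its Aim2-/- levels were 113, 105, 103 and 104 CPM in Tn and 177, 203, 185 and 197 CPM in Treg. Every Treg library lay above every Tn library of its genotype, a 1.59-fold rise in WT (log2 fold change 0.67, SE 0.10, adjusted p = 0.00014, edgeR) and a 1.72-fold rise in Aim2-/- (0.79, SE 0.07, adjusted p = 1.4e-06, edgeR).

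Nlrc5, the activator of class I transcription, was at 392, 467, 355 and 403 CPM in WT Tn and at 196, 218, 188 and 236 CPM in WT Treg. The gene lies on chromosome 8 (94434356 to 94527272, plus strand). In Aim2-/- its levels were 460.3, 453, 384 and 437 CPM in Tn and 185, 215, 256 and 220.2 CPM in Treg. All Treg libraries were below all Tn libraries, with a 2.00-fold decrease in WT (SE 0.10 on the log2 scale, adjusted p = 1.1e-05, edgeR) and a 2.06-fold decrease in Aim2-/- (log2 fold change -1.04, SE 0.10, adjusted p = 2.3e-06, edgeR).

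Levels were put in order between genes per kilobase of merged exons. In WT Tn the order was B2m (1950.1 ± 230 CPM per kb, mean ± SD, n = 4), H2-K1 (1163 ± 40.8), H2-D1 (1041 ± 112), H2-Q7 (284 ± 19.7), H2-T23 (107 ± 14.5), Tapbp (76.2 ± 3.76), Tap2 (71.7 ± 5.35), Tap1 (57.1 ± 5.34), Nlrc5 (47.6 ± 5.49) and Erap1 (15.2 ± 0.98). The ranges of the libraries overlapped for the neighbours H2-K1 and H2-D1, Tapbp and Tap2, and Tap1 and Nlrc5. In WT Treg the order began with B2m (943 ± 177), H2-D1 (413 ± 53.8) and H2-K1 (363 ± 50.7), the last of which overlapped with H2-D1. Tap1 came next (63.9 ± 11.5 CPM per kb), ahead of H2-T23 (57.6 ± 16.4), Tapbp (53.3 ± 9.04) and Tap2 (53.0 ± 8.49), and each of these overlapped with its neighbour. H2-Q7 (29.7 ± 7.46), Erap1 (25.1 ± 3.31) and Nlrc5 (24.7 ± 2.59) stood last and overlapped in turn. Between the states the fourth place therefore passed from a heavy chain, H2-Q7, to the transporter gene Tap1. The Aim2-/- libraries had the same order as WT in Tn, and in Treg they differed from it by Tap2 (59.6 ± 9.28 CPM per kb) standing ahead of Tapbp (58.2 ± 6.21), neighbours that overlapped.

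**Figure D3:**
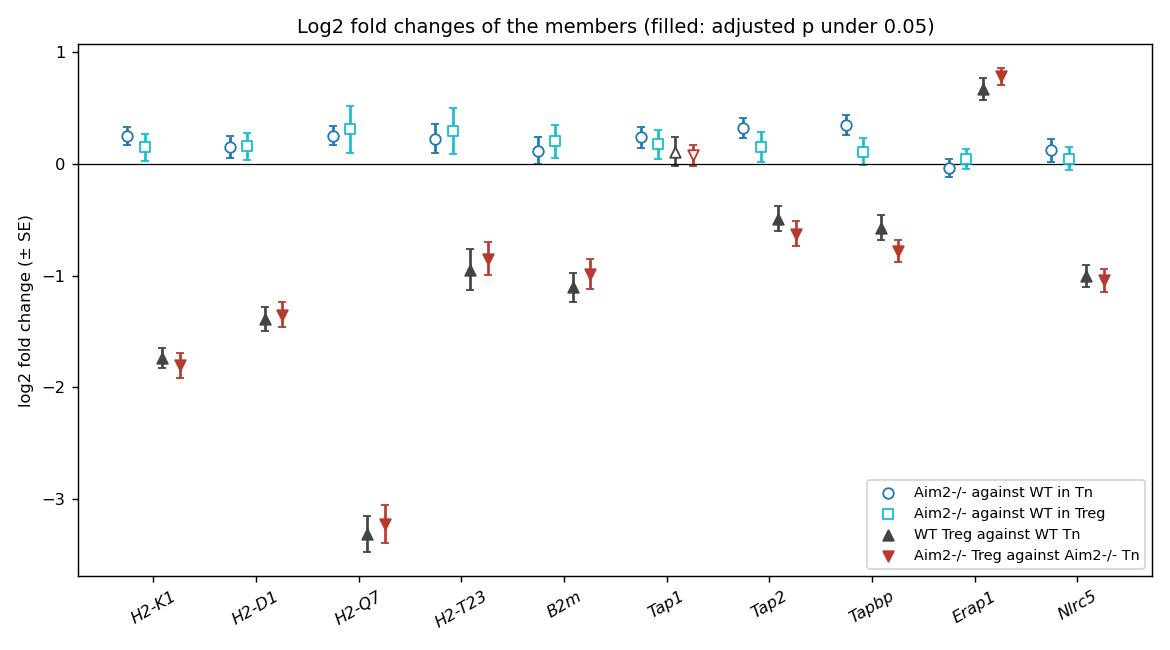
Log2 fold change of each member with its SE (vertical axis) in the 4 comparisons of edgeR, 8 libraries each, with filled symbols where the adjusted p was under 0.05. In both genotypes the state comparisons run from -3.31 and -3.22 for H2-Q7 to 0.67 and 0.79 for Erap1, and all genotype comparisons lie between -0.03 and 0.35 with no filled symbol.

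The rest of the pathway was described with a list of 42 genes, of which 41 were matched and 39 tested in each state comparison. In WT 13 rose, 17 fell and 9 did not pass the test (median log2 fold change 0.02), and in Aim2-/- 14 rose, 17 fell and 8 did not pass (median -0.02, edgeR, adjusted p under 0.05). As a whole the list therefore lay close to the background of 39.2% lower and 37.7% higher in WT, and of 40.2% and 39.1% in Aim2-/-. Its roles differed. All 8 tested genes for other class I heavy chains fell in both genotypes, with a median of -2.24 in WT and -2.37 in Aim2-/-. They included H2-Q6 (-4.14 in WT, SE 0.18, and -4.00 in Aim2-/-, SE 0.11), which encodes another Qa-2 chain, and H2-Q10 (-4.24, SE 0.23, and -4.56, SE 0.18). H2-Q10 shares many words with H2-Q7, and its level was at most 2.95 CPM in every Treg library. Cd1d1, which presents lipids to NKT cells, fell by 4.26 in WT (SE 0.20) and by 4.35 in Aim2-/- (SE 0.20).

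Genes for the cutting of proteins and the folding of glycoproteins went in other directions. Those for the constitutive proteasome subunits Psmb5, Psmb6 and Psmb7 all rose in both genotypes, Psmb7 by 1.77 on the log2 scale in WT (SE 0.10) and 1.86 in Aim2-/- (SE 0.11). Of the immunoproteasome subunits that replace them after exposure to interferon, Psmb10 fell (-0.89, SE 0.10, in WT and -1.17, SE 0.13, in Aim2-/-), while Psmb8 (0.34, SE 0.17, and 0.29, SE 0.15) and Psmb9 (0.27, SE 0.20, and 0.25, SE 0.19) did not pass the test in either genotype. Psmb8 and Psmb9 lie beside Tap1 on chromosome 17. Of 6 folding and loading chaperones, 3 rose, 1 fell and 2 did not pass the test in WT, and 4 rose, 1 fell and 1 did not pass in Aim2-/-. Over all genes tested, 37.7% were called higher and 39.2% lower in WT, and 39.1% and 40.2% in Aim2-/-. The one that fell was Hspa5, which encodes BiP (-0.70, SE 0.25, adjusted p = 0.029, and -0.62, SE 0.17, adjusted p = 0.0048, edgeR). Its states overlapped in WT, with 775 to 1530 CPM in Tn and 531 to 1034 CPM in Treg. Canx (calnexin) rose by 1.87 in WT (SE 0.08) and 1.97 in Aim2-/- (SE 0.08), and Lap3, a cytosolic leucine aminopeptidase, rose by 2.28 (SE 0.11) and 2.50 (SE 0.13). The proteasome activator gene Psme3 rose by 1.72 (SE 0.08) and 1.90 (SE 0.08).

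Among 10 genes for the transcription of class I genes, 2 rose, 5 fell and 3 did not pass the test in each genotype. The shares over all genes tested were 37.7% higher and 39.2% lower in WT, and 39.1% and 40.2% in Aim2-/-. Rfxank, a subunit of the RFX complex, fell by 1.84 in WT (SE 0.11) and 1.86 in Aim2-/- (SE 0.11), and the interferon regulatory factors Irf2 (-1.31, SE 0.10, and -1.34, SE 0.08) and Irf1 (-1.19, SE 0.33, and -1.15, SE 0.17) fell as well. The states overlapped for Irf1 in WT, with 362 to 879 CPM in Tn and 167 to 402 CPM in Treg. Nfyb, a subunit of NF-Y, rose by 0.64 (SE 0.11) and 0.69 (SE 0.11). For contrast, of 6 tested genes of MHC class II, 3 rose and 3 fell in each genotype, beside the same shares over all genes. The gene of the class II regulator, Ciita, did not pass the filter on low counts. The class II chains H2-Aa (-2.39, SE 0.41, and -2.06, SE 0.67), H2-Ab1 (-1.36, SE 0.37, and -1.65, SE 0.54) and H2-Eb1 (-0.84, SE 0.35, and -1.48, SE 0.39) fell. These chains were near the floor, with group means of 0.639 to 1.46 CPM in Tn and 0.203 to 0.438 CPM in Treg. Their states overlapped for H2-Ab1 in both genotypes, H2-Aa in Aim2-/- and H2-Eb1 in WT. The invariant chain gene Cd74 (2.60, SE 0.14, and 2.17, SE 0.23) and the peptide exchange factors H2-DMa (0.82, SE 0.21, and 0.60, SE 0.19) and H2-DMb1 (1.87, SE 0.62, and 1.18, SE 0.41) rose. H2-DMb1 had group means of 0.263 to 1.03 CPM, and its states overlapped in both genotypes, as did those of H2-DMa in Aim2-/-. The summed level of the 7 listed genes was 27.4 to 58.6 CPM in Tn and 65.4 to 113 CPM in Treg, and most of the Treg sum was Cd74 and H2-DMa. Apart from H2-Q6, H2-Q10, Cd1d1, Lap3, Canx, Psmb7 and Psme3, each among the 3 largest rises or falls of a genotype, the pathway genes named here were chosen after their values were seen.

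**Figure D4:**
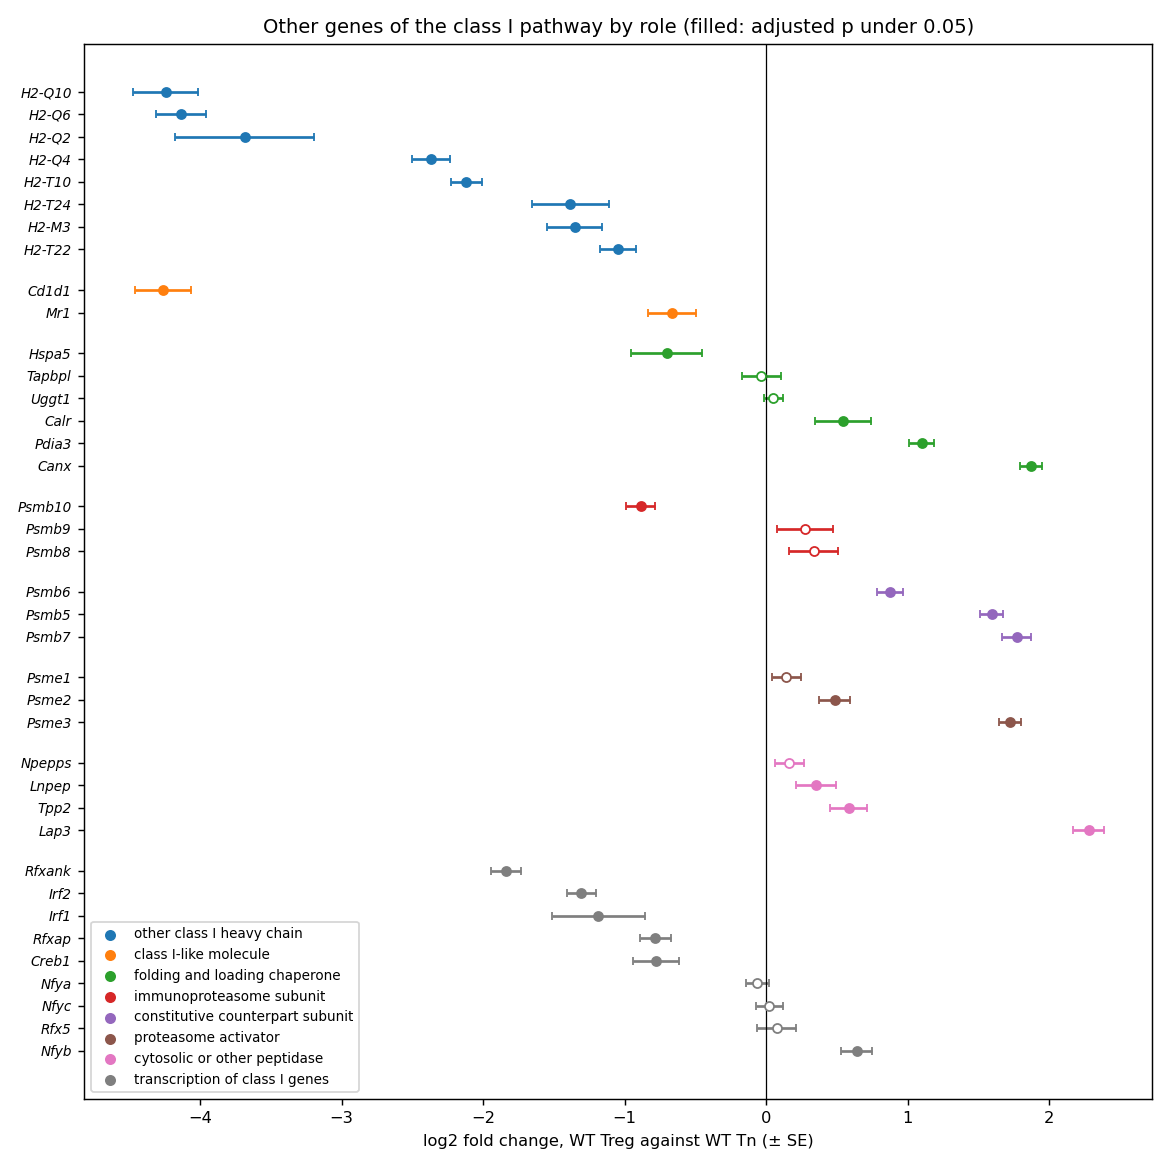
Log2 fold change with SE (horizontal axis) of 38 of the 39 tested genes of the class I pathway list between WT Treg and WT Tn, grouped by role, with filled points where the adjusted p of edgeR was under 0.05. The other heavy chain genes all lie at -1.05 or lower, and the constitutive proteasome subunits all lie at 0.88 or higher.

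Markers of cell types other than CD4 T cells also changed between the states. The summed level of 2 CD8 T cell genes was 8.91 to 12.1 CPM in Tn and 2.29 to 4.08 CPM in Treg, and that of 3 NK cell genes was 6.64 to 17.3 and 0.714 to 2.56 CPM. Nearly all of the CD8 T cell sum was Cd8b1. Cd8a had means under the floor in Tn, 0.0719 CPM in WT and 0.0594 CPM in Aim2-/-. Its means in Treg were higher, 0.236 and 0.158 CPM, and Cd8a did not pass the filter on low counts. The sum of 6 myeloid genes was 32.1 to 45.7 and 24.8 to 29.2 CPM, that of 5 B cell genes 1.06 to 2.23 and 0.377 to 1.14 CPM, and that of 4 globin genes 1.18 to 7.59 and 0 to 0.116 CPM. Most of the myeloid sum was Cst3, which did not pass the test (log2 fold change 0.10, SE 0.08, in WT and 0.03, SE 0.13, in Aim2-/-). Of the other tested myeloid genes all 3 fell in WT and all 4 in Aim2-/-, among them Cd68 (-2.38, SE 0.26, and -2.18, SE 0.18, edgeR). The part of these cells in the decrease of the class I genes was not tested.

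The comparison of genotypes in Tn cells asks whether the loss of AIM2 changed class I expression before any culture. None of the 10 members passed the test in Tn, where 0.231% of 13441 genes were called in either direction (edgeR, adjusted p under 0.05). For 5 members, H2-K1, H2-Q7, Tap1, Tap2 and Tapbp, the unadjusted p was under 0.05, as it was for 1389 of all genes, and DESeq2 called 1 member, Tapbp (adjusted p = 0.032). The libraries of the genotypes did not overlap for 4 members, H2-K1, H2-Q7, Tap2 and Tapbp, each higher in Aim2-/-, and for 6.84% of all genes. The log2 fold change was above 0 for 9 of the members, with a median of 0.24, and for 52.7% of all genes, with a median of 0.01.

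The smallest adjusted p among the members was that of Tapbp, whose log2 fold change was 0.35 (SE 0.09, adjusted p = 0.28, edgeR), or 1.28-fold, with 261 to 294 CPM in WT Tn and 322 to 388 CPM in Aim2-/- Tn. Tap2 was 1.25-fold higher (log2 fold change 0.32, SE 0.09, adjusted p = 0.32, edgeR) and Tap1 1.18-fold (0.24, SE 0.09, adjusted p = 0.43, edgeR). H2-K1 and H2-Q7 each had a log2 fold change near that of Tap1, at 0.25 (SE 0.08, adjusted p = 0.4) and 0.26 (SE 0.09, adjusted p = 0.41, edgeR). H2-T23 had 0.23 (SE 0.13), H2-D1 0.16 (SE 0.10), B2m 0.12 (SE 0.12), Nlrc5 0.12 (SE 0.10) and Erap1 -0.03 (SE 0.08). The summed heavy chain count was 1.18-fold higher in Aim2-/- Tn (0.24, SE 0.08, adjusted p = 0.42, edgeR), and its 4 libraries (10609.9 to 11355 CPM) lay above those of WT (9006 to 10252 CPM).

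None of the 39 tested pathway genes passed the test in Tn either. By edgeR 12 of them had an unadjusted p under 0.05, as had 1389 of all 13441 genes. Of these 12, Lnpep (log2 fold change -0.61, SE 0.24) and Tpp2 (-0.365, SE 0.14) were lower in Aim2-/-, and the rest were higher. The smallest adjusted p was that of Psme2, a subunit of the interferon-induced proteasome activator, at 0.28 (log2 fold change 0.42, SE 0.11). None of the 27 tested marker genes of T cells and other cells and none of the 5 tested class II genes passed the test for genotype in Tn, with smallest adjusted p of 0.36 and 0.39 (edgeR). Their summed levels are given beside the class I genes. The 4 globin genes summed to 1.18 to 3.89 CPM in WT Tn and 4.89 to 7.59 CPM in Aim2-/- Tn, and 7 genes of MHC class II and its regulator to 27.4 to 34.7 and 34.8 to 58.6 CPM. The 5 B cell genes summed to 1.06 to 1.59 and 1.46 to 2.23 CPM, ranges that overlap, with 2 of the 5 at or under 3 counts in every Tn library. Most of that sum was Cd79a, with means of 0.805 and 1.37 CPM, while the means of Cd79b were 0.343 and 0.302 CPM. The log2 fold changes of the tested CD8 and NK cell genes were 0.06 for Cd8b1 (SE 0.14), -0.10 for Klrb1c (SE 0.50) and -0.49 for Klrd1 (SE 0.26). Those of the 6 tested myeloid genes ran from -0.29 for Cd68 (SE 0.22) to 1.01 for Lyz2 (SE 0.50). Of these 6, 4 were above 0, with a median of 0.08. The 6 myeloid genes summed to 34.7 to 41.7 CPM in WT Tn and 32.1 to 45.7 CPM in Aim2-/- Tn. The part of these cells in the differences between the genotypes was not tested.

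In Treg cells the genotype comparison gave no call either. None of the 10 members passed the test or had an unadjusted p under 0.05, where 0.219% of 13221 genes were called and 304 had an unadjusted p under 0.05 (edgeR), and DESeq2 called none of the members. The groups overlapped for all 10 members, and 2.33% of all genes had groups that did not overlap. The log2 fold changes of the members ran from 0.05 for Erap1 (SE 0.09) to 0.31 for H2-Q7 (SE 0.21), with a median of 0.16 against 0.00 over all genes. H2-K1 differed by 0.15 (SE 0.12), H2-D1 by 0.16 (SE 0.12), B2m by 0.21 (SE 0.15) and Nlrc5 by 0.05 (SE 0.10), and the summed heavy chain count by 0.18 (SE 0.13, adjusted p = 1, edgeR). H2-Q6 had the smallest adjusted p of the pathway list, 0.14, with a log2 fold change of 0.51 (SE 0.09, edgeR).

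The spread among the Treg libraries was shared by the members. All 10 members were highest in replicate 4 of WT Treg, which was the highest library for 32.2% of all genes tested, and were 1.21 to 1.69 times the median of the other 3 libraries there. In Aim2-/- Treg all 10 were lowest in replicate 1, which was the lowest library for 32.6% of all genes, at 0.653 to 0.897 of the median of the others. For 8 members replicate 3 was the lowest library of WT Treg, as it was for 23.4% of all genes. In Treg the members thus moved together from library to library, and the directions of the members are not independent of each other. The WT Tn libraries parted in another way. H2-D1 and B2m were higher in replicates 1 and 2 than in replicates 3 and 4. H2-K1, H2-T23, Tap1, Tap2 and Tapbp were lower there, and H2-Q7, Erap1 and Nlrc5 did neither. The share of all genes that parted in this way was not computed, so the parting is not shown to be particular to the members. The cause was not tested.

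Whether the genotype difference itself differed between Treg and Tn was tested as an interaction over all 16 libraries. None of the 10 members passed, where 0.0205% of 14669 genes were called (edgeR), none had an unadjusted p under 0.05, against 512 of all genes, and DESeq2 called none. The interaction on the log2 scale was largest in size for Tapbp, at -0.23 (SE 0.15, adjusted p = 1), and lay between -0.16 and 0.10 for the other members.

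The genes whose pattern was most like that of H2-K1 and Nlrc5 were sought over 12119 genes by the smaller of the Pearson correlations of log2 CPM over the 8 Tn and the 8 Treg libraries. For H2-K1 these were Tap2 (smaller r 0.969), Il15ra (0.935) and Iigp1 (0.926), and Tap2 is itself a member. For Nlrc5 they were Nr1h2 (0.860), Lif (0.847) and Prr7 (0.838). Libraries in such a comparison share their depth and scaling, both genotypes enter it, and with 8 points high values are found for many genes.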

How the data were processed

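RNA of 16 libraries, 4 in each of 4 groups taken from the deposited titles and source names, was analysed. The authors prepared the mRNA with a stranded kit and read 51 bases from one end. STAR, RSEM and the build GRCm38 are named in the submitters' processing notes. The deposited values are expected counts, in 1 table per library, neither normalized nor filtered. Tool versions are not given in the sources used here.

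Expected counts were rounded, and 9160 genes had a value that was not whole in at least 1 library. A gene entered a comparison with 10 or more counts in 4 or more of its libraries. The test was edgeR's quasi-likelihood test (version 4.0.16 in R 4.3.3, two-sided, with robust fitting and TMM factors), with Benjamini-Hochberg adjustment over all genes tested and a threshold of 0.05. The study states limma-voom, which was run here as an alternative. The interaction of genotype and state used all 16 libraries. CPM values carry TMM factors over all libraries, and log2 CPM a prior count of 2. SE was derived from the fold change and the F statistic. Merged exon lengths, positions and 51-base words came from GENCODE M21 (GRCm38), and promoters from RefSeq (GRCm38.p6). Ctla4 and Itgam had 2 rows each, and the row with more counts was used. The tests were tested on simulated data.

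The members and the gene lists were chosen with earlier results of these data known. The rule for naming took all members, pathway genes called for genotype or in the interaction, the 3 largest rises and falls among called pathway genes in each state comparison, and 3 genes with the pattern most like H2-K1 and Nlrc5. Other pathway genes in the text were named after their values were seen. Alternatives were DESeq2 1.42.0, limma 3.58.1 (voom), RLE size factors, library totals, no filter, 10 counts in every library, the replicate number as a block, a term that parts replicates 1 and 2 from 3 and 4, each of these pairs alone, all 16 libraries in one fit, and each library left out. For the summed heavy chain count these alternatives were added after seeing the data. Counting intervals and floors cover counting error only. The values of 1 tested pathway gene and of 1 marker list are not reported here.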

Additional observations from a re-analysis of the deposited data

Results flagged for a closer look

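Each group of 4 libraries was checked for a library far from the others (Dixon's ratio of the gap to the range, against its 95% critical value), for the 10 members and the summed heavy chain count, which makes 44 checks, of which chance passes about 1 in 20. There were 2 such values. B2m in WT Treg replicate 4 was at 1037 CPM, while the other 3 libraries held 710.4 to 764 CPM (ratio 0.836). Tap1 in Aim2-/- Treg replicate 1 was at 332 CPM, while the other 3 held 414 to 429.5 CPM (ratio 0.846). These are the libraries in which all 10 members were highest and lowest in their groups.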

How the results depend on the processing

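The alternatives gave 1176 further values for the members and the summed heavy chain count. No member was called for genotype in Treg or in the interaction under any of them, and in Tn 1 was called by DESeq2 (Tapbp) and none by the others. In the state comparisons 8 to 10 members were called in WT and 9 in Aim2-/- under every alternative. H2-T23 missed the threshold in WT with replicates 3 and 4 only (log2 fold change -1.01, adjusted p = 0.054) and Tap1 passed it with replicates 1 and 2 only (0.31).

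Directions turned only for values that had not passed the test. With replicates 1 and 2 only, the genotype difference was -0.0125 for H2-D1 and -0.12 for B2m in Tn and -0.0592 for Nlrc5 in Treg, and with replicates 3 and 4 only, Tap1 between WT Treg and WT Tn was -0.0475. Leaving out 1 library at a time, the genotype difference in Treg ran from -0.0199 to 0.13 for Erap1 and from -0.0331 to 0.12 for Nlrc5, and Tap1 between the Aim2-/- states from -0.0214 to 0.20. The interaction then ran from -0.14 to 0.0223 for H2-K1, -0.0439 to 0.12 for H2-D1, -0.0771 to 0.27 for H2-Q7, -0.0213 to 0.30 for H2-T23, -0.15 to 0.0424 for Tap1 and -0.14 to 0.0134 for Nlrc5. The cause was not tested.

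The replicate numbers come from the titles, which do not say whether a number marks an animal, a culture or a pairing. Deviations of same-numbered libraries from their group means correlated between 0.03 and 0.35 for genotype in Tn and between -0.02 and 0.49 in Treg. For state the correlations lay between -0.04 and 0.15 in WT and between -0.04 and 0.09 in Aim2-/-. In no comparison were all correlations above 0.1, so the numbers were not taken as pairs. Whether same-numbered libraries shared an animal or a batch was not tested. A replicate block left the called members at 0, 0, 9 and 9 for genotype in Tn and Treg and state in WT and Aim2-/-. Over all genes DESeq2 called 68 higher and 60 lower for genotype in Tn where edgeR called 18 and 13, 28 and 24 in Treg where edgeR called 17 and 12, and 5 and 5 in the interaction where edgeR called 0 and 3. No scaling moved the median of all genes by 0.1 on the log2 scale.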
